A study of Mus musculus with 9 samples.

Results

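The dystrophin complex was followed here through 9 genes in whole NB9464 tumors: the syntrophins Sntb1, Sntb2, Sntg1 and Sntg2, the large scaffold genes Dmd and Utrn, the dystrobrevins Dtna and Dtnb, and the dystroglycan gene Dag1. They are 9 of the 54429 gene symbols in the count table and were taken by symbol. Sntb1 was chosen by its counts, which were at the floor in vehicle tumors and higher in treated ones. Its values are therefore given as a description with no test. The other 8 genes were taken as its family and partners.

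NB9464 is a MYCN-amplified mouse neuroblastoma line, and its cells were implanted under the skin of wild-type C57BL/6 mice, which the study's methods give as 4 to 6 weeks old. Treatment began at a tumor volume of 250 mm3. Each of 3 groups held 3 tumors: Rad + R788 + anti-PDL1 (called irradiated below), R788 + anti-PDL1, and Vehicle. R788, fostamatinib, gives rise to an inhibitor of Syk, a kinase of immune cells (50 mg/kg, 5 times a week), anti-PDL1 is an antibody (clone 10F.9G2) that blocks a T cell checkpoint ligand, and the radiation dose was 10 Gy. The series text lists doses from day 28 to day 37. All tumors came from 1 cell line and contain host cells, and the single treatments were not analysed here. R788 was always given with anti-PDL1, so the effects of these agents cannot be told apart.

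Dystroglycan is a surface receptor that binds laminins outside the cell and dystrophin, or its relative utrophin, inside it. Dystrophin and utrophin connect the receptor to actin. Dystrobrevin binds to them, and syntrophins are adaptors that sit on both and hold channels, kinases and nitric oxide synthase at the membrane through a PDZ domain. In muscle the assembly protects the membrane during contraction, while outside muscle the utrophin form predominates in many epithelial, endothelial and nerve tissues.

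The 9 libraries held 18276683 to 23397886 counts each. Irradiated replicate 1 stood apart: across genes, its Pearson r with any other library was at most 0.907 (log2 CPM), its TMM factor was 0.743 against 0.975 to 1.119 in the others, and 1.97% of its counts were mitochondrial against 3.48% to 5.71%. Among 8 fixed neuroblast markers, Hand2 (324 to 866 CPM) and Mycn (93.2 to 250 CPM) were abundant, whereas Th had 0 counts in all 9 libraries and Phox2a and Dbh had 0 to 3. Isl1, another of them, had 0 counts in the vehicle tumors and 14 to 80 in the treated ones. It passed the filter on low counts through the treated tumors alone, so it had to be higher there to be tested at all. It was the list's 1 called gene, in R788 + anti-PDL1 versus vehicle, and that call is therefore a description. Gata3, also on the list, had 0.179 to 11.4 CPM in vehicle, 0.305 to 0.661 CPM in R788 + anti-PDL1 and 5.89 to 6.80 CPM in irradiated tumors. Their part in the results below was not tested. A count of 0 allows up to 3 counts, or 0.115 to 0.221 CPM by library, and such limits cover counting error only. In whole tumors, fewer cells of a type and less RNA per cell cannot be told apart.

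Sntb1, encoding beta-1-syntrophin (ENSMUSG00000060429.12, GRCm38 chromosome 15, 55636388 to 55906949, minus strand), had 2, 2 and 1 counts in the vehicle tumors. It had 201, 24 and 156 counts in R788 + anti-PDL1 replicates 1 to 3. The irradiated tumors had 19, 38 and 71 counts. Thus every treated tumor lay above every vehicle tumor, and the vehicle tumors were all under the limit of 3 counts.

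Sntb1 and its closest relative among the members, Sntb2 (ENSMUSG00000041308.6, chromosome 8, 106935750 to 107019714, plus strand), are similar in coding sequence, so it was asked whether reads of one could be counted as the other. The longest run of identical bases in their annotated coding sequences was 20 bases, in the first exon of both genes, against reads of 150 bases per the labels. Untranslated parts of the transcripts were not compared, so this run does not settle the question. The stretches around the run are shown with it in capitals, and 48 of 62 bases match (GENCODE M21, sense strand; Sntb1 at chr15:55906080-55906141, Sntb2 at chr8:106936204-106936265).
Sntb1: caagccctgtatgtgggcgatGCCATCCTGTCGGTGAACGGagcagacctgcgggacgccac
Sntb2: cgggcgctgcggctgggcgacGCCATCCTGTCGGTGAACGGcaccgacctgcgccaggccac

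On the CPM scale, which adjusts for library size and TMM factor, Sntb1 was at 0.0849 ± 0.0281 in vehicle (SD, n = 3), 5.38 ± 4.06 in R788 + anti-PDL1 and 2.19 ± 0.947 in irradiated tumors. Summed over the tumors of a group, 381 counts in R788 + anti-PDL1 against 5 in vehicle gave a normalized ratio of 61.0 (95% exact interval 25.9 to 189). For the irradiated tumors, 128 counts against 5 gave 27.2 (11.4 to 85.2). These intervals cover counting error only, not the spread between tumors, and since they are from the values Sntb1 was chosen by, they describe its precision and test nothing. That spread was large within R788 + anti-PDL1, where replicates 1 and 3 had 8.85 and 6.39 CPM and replicate 2 had 0.916 CPM, below all irradiated tumors (1.40, 1.93 and 3.24 CPM). The treated groups therefore overlapped. Without replicate 2 the mean CPM of Sntb1 in R788 + anti-PDL1 was 7.62.

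**Figure D1:**
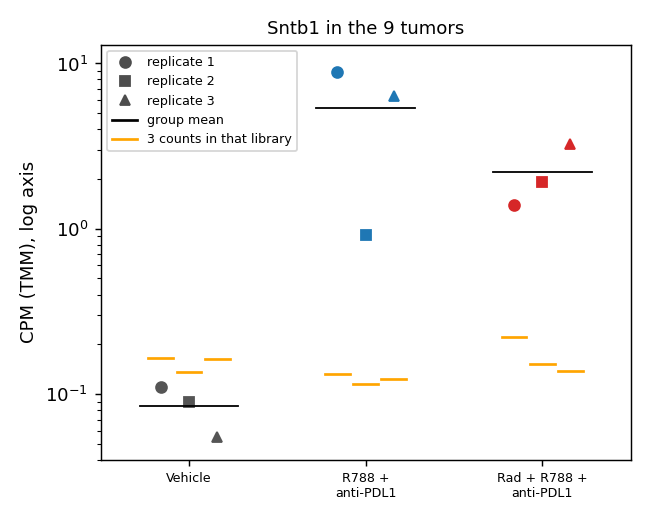
Sntb1 CPM (TMM-normalized, log axis) in each of the 9 tumors by group; symbols mark replicates, black lines group means, and orange lines 3 counts in that library. The 3 vehicle tumors lie under their 3-count lines at 0.0547 to 0.110 CPM, and the 6 treated tumors lie above theirs at 0.916 to 8.85 CPM.

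R788 + anti-PDL1 replicate 2 also differed from its group in cell type markers. The summed level of 6 endothelial markers, all detected, was 111 CPM in it, against 43.2 and 65.7 CPM in replicates 1 and 3, 34.4 to 44.7 CPM in vehicle and 47.6 to 59.3 CPM in irradiated tumors. The summed level of 6 smooth muscle and pericyte markers was 225 CPM, against 95.3 to 136 CPM in the other 8 libraries. Rgs5 (96.3 CPM) and Pdgfrb (82.7 CPM) held most of it, while Acta2 (27.2 CPM) and Tagln (11.3 CPM) were not highest in that library. The summed level of 6 fibroblast markers was highest there too, at 5360 CPM. It was 2900 and 3400 CPM in replicates 1 and 3, 3010 to 3740 CPM in vehicle and 2500 to 4920 CPM in irradiated tumors. The summed level of 6 macrophage markers was highest in irradiated replicate 3 (1410 CPM, against 247 to 567 CPM in the others). The part of these cells in the Sntb1 values was not tested.

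The genes with the pattern most like Sntb1 were found by the Pearson correlation of log2 CPM over the 9 libraries, among 13552 named genes. They were Cd44, a hyaluronan receptor (r = 0.976), Nt5e, the ectonucleotidase CD73 (r = 0.970), Slc27a6, a fatty acid transport protein (r = 0.970), Arfgef3 (r = 0.966) and Bdnf, a neurotrophin (r = 0.965). The points share the libraries and the group structure, so these values describe likeness only. All 5 had their 2 highest levels in R788 + anti-PDL1 replicates 1 and 3. Cd44 was at 34.0 to 46.4 CPM in vehicle, 115, 60.7 and 100 CPM in R788 + anti-PDL1 and 60.6 to 84.5 CPM in irradiated tumors. Nt5e was at 2.85 to 4.96 CPM in vehicle and 10.5 to 27.2 CPM in the treated tumors. Among the other complex genes, r with Sntb1 was 0.481 for Dtna, 0.403 for Dmd, 0.048 for Sntb2, -0.074 for Utrn, -0.083 for Dag1 and -0.291 for Dtnb. The 5 genes above were picked for the highest r, so lower values here follow from that choice.

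Levels of different genes were compared only per length, as counts per kilobase of exon, scaled to the same sum in each library as TPM is. In vehicle tumors Dag1 was highest at 112 ± 14.7 (SD, n = 3). Sntb2 (15.8 ± 4.92), Dtnb (14.9 ± 3.86) and Utrn (13.5 ± 2.44) followed and did not differ beyond their spread. Dtna was at 0.801 ± 0.398, Sntb1 at 0.0454 ± 0.0142 and Dmd at 0.0143 ± 0.00702, and Sntg1 and Sntg2 were at 0. The vehicle tumors thus carried the utrophin form of the complex with beta-2-syntrophin and beta-dystrobrevin among these 9 genes. With the treatments Sntb1 reached 3.22 ± 2.38 in R788 + anti-PDL1 and 1.17 ± 0.756 in irradiated tumors, overlapping Dtna in the first (2.57 ± 1.66) and under it without overlap in the second (3.08 ± 1.24). It was under Sntb2 in every tumor of both groups (21.2 ± 1.88 and 12.7 ± 8.97). Dag1 remained the highest of the 9 in all groups. The order in the middle depended on the length used: with the longest transcript, vehicle Dtnb was at 29.4 ± 7.71, ahead of Utrn (14.4 ± 2.70) and Sntb2 (12.8 ± 4.04).

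**Figure D2:**
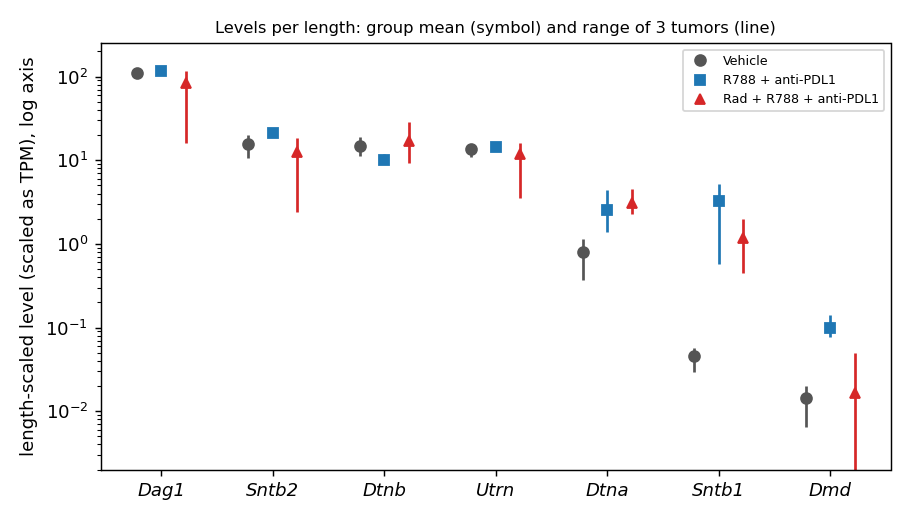
Length-scaled level (counts per kilobase of exon, scaled as TPM, log axis) of the 7 members with more than a trace of counts; symbols are group means and lines the range of 3 tumors, with a line that reaches the lower edge marking a tumor at 0. Dag1 is highest in each group, and Sntb1 goes from 0.0454 in vehicle to 3.22 and 1.17 in the treated groups.

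The other 8 genes were tested with edgeR's quasi-likelihood test, fitted on 15931 genes, with a call at a Benjamini-Hochberg adjusted p under 0.05. Of the 8, 6 had enough counts to be tested. Among these, 0 were called in R788 + anti-PDL1 versus vehicle, where 0.678% of all genes were called (0.389% higher), 0 in irradiated tumors versus vehicle (0.0439% of all genes) and 0 in irradiated tumors versus R788 + anti-PDL1 (0.00628%). Dmd was among the 6 only because it was high in 1 group. Of the other 5, an unadjusted p under 0.05 was obtained for 1, 1 and 1, where 11.7%, 13.2% and 18.4% of all genes had one, and their median log2 fold change was -0.09, -0.21 and -0.12, beside -0.018, 0.046 and 0.041 over all genes tested. DESeq2 called 0, 1 and 0 of the 6, where it called 4.83%, 3.84% and 5.17% of all genes, and limma-voom called 0 in each. The comparisons share groups and are not independent.

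Sntb2, the main beta-syntrophin here, had 39.3, 71.5 and 60.4 CPM in vehicle, 65.2, 71.5 and 66.2 CPM in R788 + anti-PDL1, and 14.6, 58.0 and 59.3 CPM in irradiated tumors. Vehicle overlapped both treated groups, and irradiated replicate 1 was the lowest library. Versus vehicle, its log2 fold change was 0.24 ± 0.45 (SE) with R788 + anti-PDL1 (adjusted p = 0.885) and -0.38 ± 0.45 in irradiated tumors (adjusted p = 0.687), the latter becoming 0.07 without irradiated replicate 1. The former was 0.06 without vehicle replicate 1 and 0.43 without vehicle replicate 2. Against R788 + anti-PDL1, the irradiated tumors were lower without overlap, where 13.2% of all genes were. The difference for Sntb2 was -0.62 ± 0.45 (adjusted p = 0.452), or -0.20 without irradiated replicate 1. The gamma-syntrophins, which are mainly neuronal, were near absent from the counts: Sntg1 (ENSMUSG00000025909.16, chromosome 1, 8361475 to 9299878) had 2 counts in R788 + anti-PDL1 replicate 2 and 0 elsewhere, and Sntg2 (ENSMUSG00000020672.14, chromosome 12, 30174482 to 30373375) had 0 in all 9 libraries.

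Dtna, encoding alpha-dystrobrevin (ENSMUSG00000024302.16, chromosome 18, 23415135 to 23659715), had 5.35, 2.15 and 6.79 CPM in vehicle tumors. It had 7.44, 22.3 and 9.78 CPM in R788 + anti-PDL1 and 24.5, 24.6 and 12.0 CPM in irradiated tumors. All 6 treated tumors were above all 3 vehicle tumors, a pattern in which 13.6% of all genes were higher without overlap in R788 + anti-PDL1 and 9.26% in irradiated tumors. Versus vehicle, the difference on the log2 scale was 1.47 ± 0.54 with R788 + anti-PDL1 (adjusted p = 0.317) and 2.10 ± 0.55 in irradiated tumors (adjusted p = 0.221), neither of them called. DESeq2 called the second (2.13, adjusted p = 0.00689). Without R788 + anti-PDL1 replicate 2, the library with the highest endothelial, pericyte and fibroblast marker sums, the first was 0.86. Dtna has exons that overlap Gm47898 on the other strand, and the strandedness of the counting was not stated, so its counts are uncertain to that extent.

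Dtnb, encoding beta-dystrobrevin (ENSMUSG00000071454.13, chromosome 12, 3572381 to 3781796), had 38.4, 49.3 and 62.6 CPM in vehicle and 36.0, 26.8 and 27.9 CPM in R788 + anti-PDL1. These groups did not overlap, where 16.5% of all genes were lower without overlap, but the log2 fold change of -0.73 ± 0.57 was not called (adjusted p = 0.710). In irradiated tumors it had 163, 39.1 and 27.4 CPM. The first of these was far above the others in its group and set the sign of the change versus vehicle, which was 0.61 ± 0.57 (adjusted p = 0.608) with it and -0.56 without it.

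Dmd, encoding dystrophin (ENSMUSG00000045103.17, chromosome X, 82948870 to 85206141), had few counts in any tumor: 1, 3 and 3 in vehicle, 14, 26 and 14 in R788 + anti-PDL1, and 0, 0 and 8 in irradiated tumors. R788 + anti-PDL1 lay above both other groups without overlap. Of all genes, 13.6% were higher in it than in vehicle without overlap, and 13.2% were lower in irradiated tumors than in it. The summed counts gave a normalized ratio of 6.17 versus vehicle (95% exact interval 2.80 to 16.1) and 5.08 against irradiated tumors (2.40 to 12.4), counting error only. Dmd passed the filter on low counts through R788 + anti-PDL1 alone, so it had to be higher there to be tested at all. Its fitted log2 differences, 2.56 ± 1.08 versus vehicle and -2.40 ± 1.07 between irradiated tumors and R788 + anti-PDL1, are therefore a description, and neither was called. All irradiated counts came from replicate 3. The gene has short and long forms from several promoters, and counts per gene do not separate them. Markers of skeletal muscle were near 0 in part: Myog had 0 counts in all libraries, Acta1 0 to 11 and Myh4 0 to 2. The sum of the 8 muscle markers, of which Tnni2 held most, was 40.4 to 62.4 CPM in R788 + anti-PDL1, 69.6 to 80.7 CPM in vehicle and 161 to 790 CPM in irradiated tumors. Ckm, on the same list, had 1.32, 0.942 and 0.931 CPM in vehicle, 2.03, 2.02 and 1.11 CPM in R788 + anti-PDL1 and 10.9, 2.74 and 2.33 CPM in irradiated tumors. The part of muscle cells in the Dmd values was not tested.

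Utrn, encoding utrophin (ENSMUSG00000019820.11, chromosome 10, 12382188 to 12869365), was much steadier. It had 67.1, 91.5 and 83.7 CPM in vehicle, 78.7, 74.3 and 74.8 CPM in R788 + anti-PDL1, and 35.8, 86.6 and 86.5 CPM in irradiated tumors. Apart from irradiated replicate 1, its highest and lowest libraries differed by 1.36 times. Its log2 fold changes were -0.09 ± 0.31, -0.21 ± 0.31 and -0.12 ± 0.31 in the 3 comparisons (adjusted p = 0.947, 0.742 and 0.845). For Utrn the first became 0.01 without vehicle replicate 2, and the others 0.13 and 0.20 without irradiated replicate 1.

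Dmd and Utrn shared at most 25 identical bases in their coding sequences. Untranslated parts were not compared here either, so whether reads of these paralogs could be exchanged is not settled. That stretch is shown with its flanks, and 58 of 67 bases match (capitals mark the identical run; GENCODE M21, sense strand; Dmd at chrX:85110030-85110096, Utrn at chr10:12441940-12442006).
Dmd: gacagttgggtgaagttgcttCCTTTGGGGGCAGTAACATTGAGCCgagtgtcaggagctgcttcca
Utrn: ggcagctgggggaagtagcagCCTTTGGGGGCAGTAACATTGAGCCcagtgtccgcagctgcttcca

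Dag1, encoding dystroglycan (ENSMUSG00000039952.15, chromosome 9, 108204634 to 108263958), had 218, 261 and 266 CPM in vehicle, 252, 197 and 242 CPM in R788 + anti-PDL1, and 61.3, 237 and 231 CPM in irradiated tumors. Irradiated replicate 1 was the exception, and the other 8 libraries lay within 1.35 times of each other. Versus vehicle, it differed by -0.11 ± 0.42 on the log2 scale with R788 + anti-PDL1 (adjusted p = 0.953) and -0.49 ± 0.42 in irradiated tumors (adjusted p = 0.572), or -0.06 without irradiated replicate 1. Sntb2, Utrn, Dag1 and the dystrophin relative Drp2 all had their lowest level in that library, while Dtnb had its highest there.

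**Figure D3:**
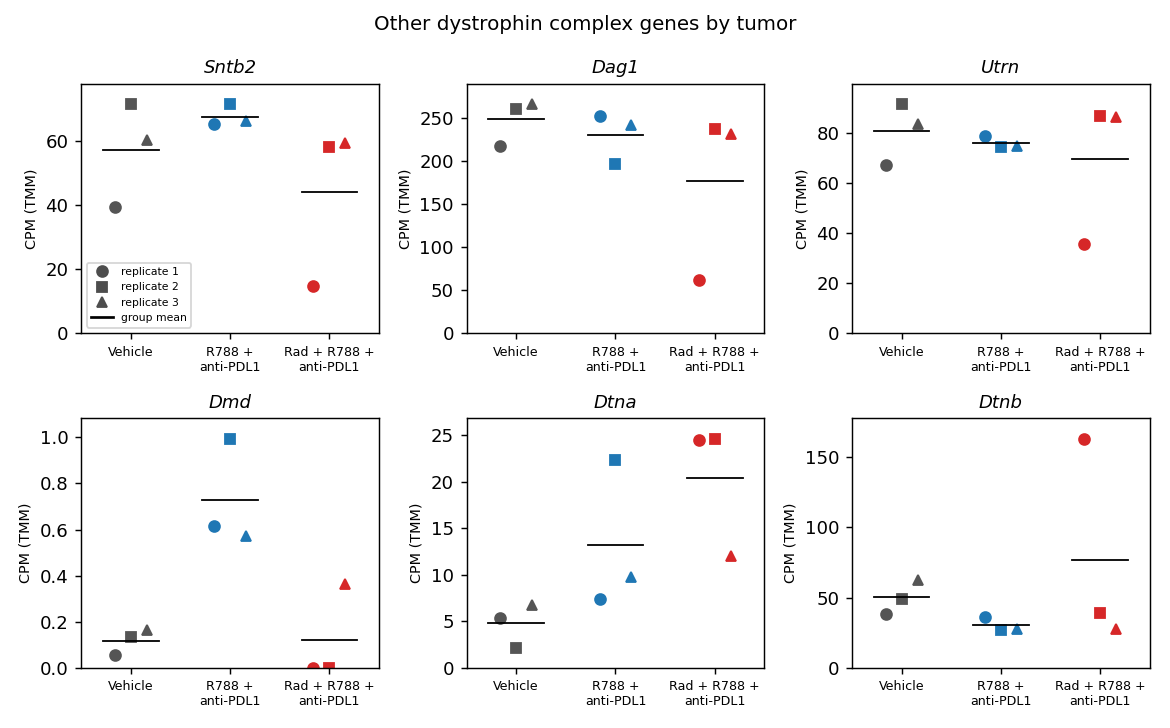
CPM (TMM-normalized, linear axes from 0) of 6 complex genes in each tumor by group; symbols mark replicates and lines group means. Irradiated replicate 1 is lowest for Sntb2 (14.6), Dag1 (61.3) and Utrn (35.8) and highest for Dtnb (163), and Dtna is higher in each treated tumor than in each vehicle tumor.

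The balance within each pair of relatives was computed per length inside each library, so that it does not depend on the scaling between libraries. Sntb1 made up 0.542%, 0.243% and 0.176% of the summed Sntb1 and Sntb2 level in vehicle, 20.9%, 2.43% and 15.8% in R788 + anti-PDL1, and 15.7%, 6.07% and 9.60% in irradiated tumors. The high share in irradiated replicate 1 went with its low Sntb2. Dtna made up 2.42% to 7.32% of the dystrobrevin level in vehicle, 10.5% to 32.1% in R788 + anti-PDL1 and 7.89% to 26.3% in irradiated tumors. Dmd made up at most 0.952% of the summed Dmd and Utrn level with exon length, and at most 1.10% with the longest transcript. Thus Utrn was the larger member of its pair in all 9 tumors.

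**Figure D4:**
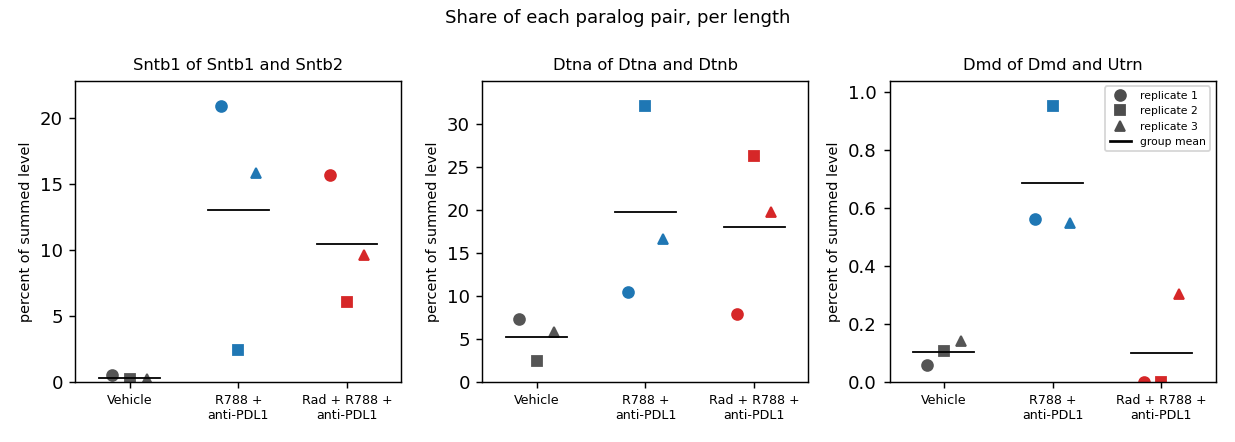
Share (percent, linear axes from 0) of Sntb1, Dtna and Dmd in the summed length-scaled level of their paralog pair, by tumor and group; symbols mark replicates and lines group means. Sntb1 is at 0.176% to 0.542% in vehicle and 2.43% to 20.9% in treated tumors, and the Dmd share peaks at 0.952%.

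Of the 10 other genes of the core complex, 7 were tested and 0 were called by edgeR in any comparison. An unadjusted p under 0.05 was obtained for 2, 3 and 1 of the 7 in R788 + anti-PDL1 versus vehicle, irradiated versus vehicle and irradiated versus R788 + anti-PDL1. Of all genes tested, 11.7%, 13.2% and 18.4% had one in these comparisons. The untested genes Sgca (0 to 4 counts), Sgcd (0 to 2) and Sgcz (0 to 1) are sarcoglycans, membrane partners of dystroglycan. Sgcb, another sarcoglycan, varied little, from 28.7 to 37.8 CPM over the 9 libraries. Sgce had 21.5, 17.4 and 16.6 CPM in vehicle and 12.2, 10.7 and 10.5 CPM in irradiated tumors, without overlap (-0.73 ± 0.26, adjusted p = 0.321). Sgce in R788 + anti-PDL1 (11.6, 21.0 and 14.0 CPM) overlapped both. Of all genes, 11.2% were lower without overlap in irradiated tumors versus vehicle.

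Nos1, encoding the neuronal nitric oxide synthase that the complex anchors in muscle, varied widely: 2.37, 1.12 and 1.70 CPM in vehicle, 0.837, 16.1 and 7.16 CPM in R788 + anti-PDL1, and 2.43, 25.7 and 17.4 CPM in irradiated tumors. Its change in irradiated tumors versus vehicle was 3.14 ± 1.04 (adjusted p = 0.289), called by DESeq2 (adjusted p = 0.0207). With R788 + anti-PDL1 it was 2.22 ± 1.01 (adjusted p = 0.440), or 1.21 without replicate 2 of that group. Nos1 overlaps Gm26995 on the other strand. Sspn, encoding sarcospan, which overlaps Sspnos on the other strand, and Drp2 overlapped in all 3 comparisons between groups.

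**Figure D5:**
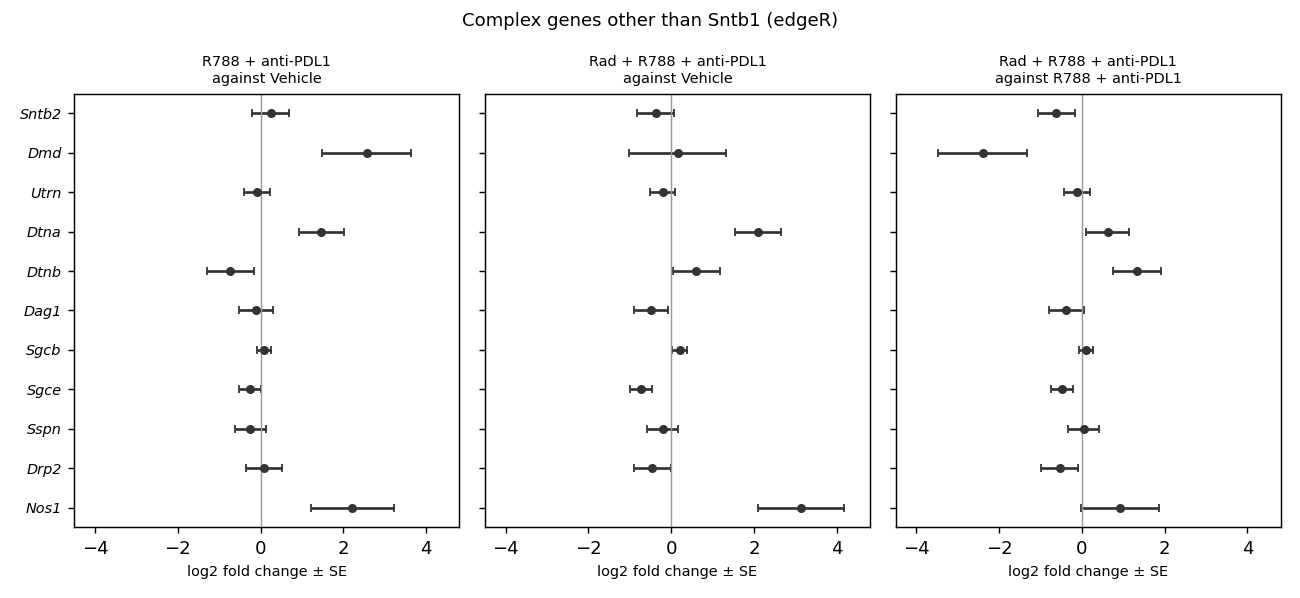
Log2 fold change (points) and SE (bars) from edgeR for complex genes other than Sntb1, in 3 comparisons. Among the genes drawn, the largest changes are those of Nos1 (2.22 and 3.14) versus vehicle and of Dmd (2.56 and -2.40) in the comparisons with R788 + anti-PDL1, and none of the points was called.

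The extracellular ligands of dystroglycan were measured by 10 genes, of which 7 were tested and 0 called by edgeR in any comparison. They had 2, 1 and 0 unadjusted p-values under 0.05, where 11.7%, 13.2% and 18.4% of all genes had one. Lama2, encoding the laminin alpha-2 chain that dystroglycan binds in muscle and nerve, was separated most clearly. It had 19.9, 20.8 and 19.2 CPM in vehicle and 60.2, 70.4 and 62.1 CPM in R788 + anti-PDL1, with 1.69 ± 0.41 on the log2 scale (adjusted p = 0.110), and DESeq2 called it (adjusted p = 0.00201). In irradiated tumors it had 13.9, 53.6 and 44.1 CPM. There the change of 0.90 ± 0.40 (adjusted p = 0.376) became 1.32 and was called without irradiated replicate 1 (adjusted p = 0.012, where 0.343% of all genes were called), and was 0.54 without irradiated replicate 2. Lama2 overlaps Gm48084 on the other strand. Hspg2, encoding perlecan, had the lowest change of the list in R788 + anti-PDL1 versus vehicle (-0.26 ± 0.28) and the highest in irradiated tumors versus R788 + anti-PDL1 (0.48 ± 0.28, or 0.75 without irradiated replicate 1). Egflam, encoding pikachurin, had the lowest in both comparisons of irradiated tumors (-1.08 ± 0.91 and -1.85 ± 0.91), at 3 to 47 counts per library. The first rested on vehicle replicate 2, with 34 counts against 3 and 4, and Egflam was at 0.63 without it. The second was -1.18 without R788 + anti-PDL1 replicate 3.

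The 18 genes for the sugar chain by which dystroglycan binds its ligands were all tested, and 0 were called by edgeR. They had 0, 2 and 1 unadjusted p-values under 0.05, where 11.7%, 13.2% and 18.4% of all genes had one. Their medians were -0.11, -0.01 and 0.11 in R788 + anti-PDL1 versus vehicle, irradiated versus vehicle and irradiated versus R788 + anti-PDL1. Gmppb, which makes the GDP-mannose used in this pathway, had 10.7, 10.2 and 9.25 CPM in vehicle, 11.1, 8.21 and 10.6 CPM in R788 + anti-PDL1, and 30.4, 27.0 and 15.0 CPM in irradiated tumors. The irradiated tumors lay above both other groups. Of all genes, 9.26% were higher without overlap in irradiated tumors versus vehicle and 14.2% against R788 + anti-PDL1. For Gmppb the differences were 1.26 ± 0.29 versus vehicle (adjusted p = 0.165) and 1.27 ± 0.29 against R788 + anti-PDL1 (adjusted p = 0.170). DESeq2 called both (adjusted p = 0.00381 and 0.00399). Gmppb overlaps Gm20529 and Rnf123, which makes its counts uncertain. Pomt1, a protein O-mannosyltransferase, was lowest of the list in both comparisons of irradiated tumors (-0.85 ± 0.37 and -0.66 ± 0.37, or -0.46 and -0.29 without irradiated replicate 1), and Dpm1 (-0.58 ± 0.28) was lowest in R788 + anti-PDL1 versus vehicle. Exons of Pomt1 overlap Uck1, those of Dpm1 overlap Gm20716, those of Egflam overlap Gm16029 and those of Mast1, named next, overlap Dnase2a.

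Of 20 partners of syntrophin, dystrobrevin or dystrophin, 19 were tested and 0 were called by edgeR. They had 6, 2 and 7 unadjusted p-values under 0.05, where 11.7%, 13.2% and 18.4% of all genes had one. Scn4a, encoding a muscle sodium channel, was highest in R788 + anti-PDL1 versus vehicle (1.94 ± 0.58, adjusted p = 0.201). Cav3, encoding muscle caveolin, was highest in both comparisons of irradiated tumors (1.21 ± 0.71, adjusted p = 0.444, and 2.75 ± 0.75, adjusted p = 0.206). It had 8.10, 2.13 and 3.06 CPM in irradiated tumors, and without replicate 1, which also had the highest muscle marker sum (790 CPM, against 173 and 161), Cav3 was at 0.47 and 1.99. The part of muscle cells was not tested. Mast1, a kinase that binds syntrophin, was lowest in both (-1.42 ± 0.93 and -2.17 ± 0.92), at 0 to 34 counts. In irradiated tumors Mast1 had 0, 12 and 2 counts, and without replicate 2 the values were -3.50 and -4.24. Over all 51 tested genes of these lists, the median log2 fold change was 0.02, 0.08 and 0.00, and the groups did not overlap at 10 higher and 6 lower genes in R788 + anti-PDL1 versus vehicle, where 30.1% of all genes did not overlap. They did not overlap at 4 higher and 7 lower in irradiated tumors versus vehicle (20.5% of all genes) and at 8 higher and 9 lower in irradiated tumors versus R788 + anti-PDL1 (27.4%).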

How the data were processed

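RNA of 9 whole tumors was profiled after poly(A) enrichment. Per the study's methods and the submitters' processing notes, mm10 was the mouse build, STAR 2.6.1d mapped the reads and Salmon 1.4.0 quantified them. The authors deposited estimated counts per gene symbol as whole numbers, with no normalization; the rounding and annotation are not given in the sources used here. The labels' extraction text names macrophages although the tissue label is whole tumor. The labels give paired reads and the methods single reads.

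Groups came from the treatment labels, which give no batch. Whether each library came from its own mouse is not spelled out, so p-values measure the spread between these libraries. Counts were filtered with filterByExpr (minimum count 10), normalized by TMM and tested in edgeR 4.0.16 (R 4.3.3) with 1 coefficient per group over all 9 libraries, two-sided, with Benjamini-Hochberg adjustment over 15931 genes. The study used DESeq2, which is an alternative here (1.42.0), as is limma 3.58.1 (voom). SE is the log2 fold change over the square root of F. The likeness to Sntb1 used a prior count of 2. Lengths, coordinates, overlaps and coding sequences came from GENCODE M21 (GRCm38), which matched 98.9% of symbols. Exact intervals are at 95% and condition on the summed counts.

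The members and lists were chosen with earlier results of these data known. Named were the members, the core complex, and in each other list any called gene and the extremes of each comparison. Calls by DESeq2 were named for their values. Some genes of these lists are not reported here by name, and they stay in the counts. Scripts were tested on simulated counts.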

Additional observations from a re-analysis of the deposited data

Results flagged for a closer look

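Ank2, encoding the membrane adaptor ankyrin-B and listed among the partners of dystrophin, lay on opposite sides of vehicle in the treated groups. It had 48.1, 63.9 and 59.6 CPM in vehicle, 88.3, 69.5 and 85.7 CPM in R788 + anti-PDL1, and 42.4, 45.1 and 41.4 CPM in irradiated tumors. Each R788 + anti-PDL1 tumor was above all vehicle tumors and each irradiated tumor below them. Versus vehicle, 13.6% of all genes were higher without overlap in R788 + anti-PDL1, and 11.2% were lower in irradiated tumors. The share of genes that did both was not computed. Neither change of Ank2 versus vehicle was called by edgeR (0.51 ± 0.18, adjusted p = 0.312, with R788 + anti-PDL1, and -0.41 ± 0.18, adjusted p = 0.378, in irradiated tumors). The difference between the treated groups was -0.92 ± 0.19 on the log2 scale. It was not called by edgeR (adjusted p = 0.135; range over 14 alternatives 0.000251 to 0.528), and DESeq2, which called 5.17% of all genes there, was the alternative that called it. Ank2 overlaps Gm16958 on the other strand. No other tested gene of the complex or its lists showed this pattern.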

How the results depend on the processing

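With edgeR, 0 complex genes other than Sntb1 and 0 genes of the wider lists were called in each comparison. DESeq2 called 1 complex gene (Dtna) in irradiated tumors versus vehicle, and 5, 2 and 4 list genes in R788 + anti-PDL1 versus vehicle, irradiated versus vehicle and irradiated versus R788 + anti-PDL1, with 4.83%, 3.84% and 5.17% of all genes called. With only the 6 libraries compared, 5 list genes were called in R788 + anti-PDL1 versus vehicle, with 3.84% of all genes called. Leaving out a library gave 0 to 1 list genes in irradiated tumors versus vehicle, the 1 being Lama2 without irradiated replicate 1, and 0 otherwise. Few genes were called at all in these fits, of 16311 to 16688 tested. They were 0 to 75 in R788 + anti-PDL1 versus vehicle, 1 to 57 in irradiated versus vehicle and 0 to 21 in irradiated versus R788 + anti-PDL1. A list count of 0 there therefore says little about these genes. The cause of these differences was not tested. Correlations of same-numbered deviations were -0.046 to 0.233, and 5 of 9 libraries correlated best with their own number. These values do not settle whether the replicate numbers pair the samples. With the replicate block, 0 complex and 0 list genes were called in each comparison, while all calls in R788 + anti-PDL1 versus vehicle went from 108 to 0. Under each scaling, the mean CPM of Sntb1 moved by less than 1 SD. With a library of the group left out, it ran from 3.65 to 7.62 in R788 + anti-PDL1, 1.66 to 2.58 in irradiated and 0.0722 to 0.1 in vehicle tumors. With 3 tumors a group, leaving 1 out cannot move a mean by 1 SD, so these ranges are a description only. With the longest transcript as length, 3, 5 and 2 of the 9 genes changed place in vehicle, R788 + anti-PDL1 and irradiated tumors. Genes under 10 counts in any library, Sntb1 and Dmd among them, gave no value under the strictest filter. With 3 tumors a group and few counts for Sntb1 and Dmd, small changes were not detectable.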
